A study of Mus musculus with 9 samples.

Results

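The 10 genes described here are Peg3, Usp29, Zim1, Igf2r, H19, Meg3, Rian, Plagl1, Grb10 and Cdkn1c. They are imprinted genes of the mouse, and each is 1 row of the 49585 gene rows of a table of liver RNA sequencing. They were chosen by name with earlier results from the same exon counts known, so the differences between groups given for them are descriptions and carry no test. All 10 rows were found, and 7 of them had enough counts to enter the fit across genes. Usp29, Zim1 and Plagl1 did not.

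The study compared livers of male C57BL/6J mice, bought at 5 weeks of age and 14 weeks old when sampled. MG mice lived in microgravity on the International Space Station for about 35 days. AG mice lived there for the same time in a centrifuge at 77 rpm, which gave them 1 g. GC mice were ground controls at 1 g, housed in Japan in a way meant to copy the housing in flight. Each flight group held 6 mice, which were killed 2 days after splashdown. Every group has 3 libraries of total RNA depleted of ribosomal RNA, and the labels do not say which animal a library came from, so the spread between libraries may be technical. The flight mice came from the Jackson Laboratory and the ground mice from Charles River, so supplier and flight cannot be told apart in any comparison with GC. MG and AG share a supplier. In bulk liver, fewer cells of a type and less RNA per cell cannot be told apart either, and the counts do not separate the parental copies.

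Genomic imprinting marks a gene in the germ line so that mainly the maternal or mainly the paternal copy is transcribed later. Imprinted genes lie in clusters, each under a control region methylated on a single parental copy, and many of them govern growth before birth. In rodent liver several are abundant in the fetus and silenced after birth, H19 among them. In most tissues the paternal copy is the active one of Peg3, Usp29 and Plagl1, and the maternal copy of the other 7.

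The promoter stretch between Peg3 and Usp29 is shown first, because both genes start there and the counts separate them. Peg3, which encodes a zinc finger protein, occupies chr7:6703891-6730431 on build GRCm38. Usp29, which encodes a ubiquitin protease, runs the other way from chr7:6730577-6967219, and 145 bases lie between their bodies. Their RefSeq promoter windows of 300 bases share 263 bases. The window of Meg3 stands beside it, since both hold the letters TGACGTCA, the core of a cAMP response element, which are in capitals. Both are given 5′ to 3′ on the strand of the gene, from RefSeq on GRCm38.p6, Peg3 from chr7:6730370-6730669 and Meg3 from chr12:109540746-109541045.
Peg3: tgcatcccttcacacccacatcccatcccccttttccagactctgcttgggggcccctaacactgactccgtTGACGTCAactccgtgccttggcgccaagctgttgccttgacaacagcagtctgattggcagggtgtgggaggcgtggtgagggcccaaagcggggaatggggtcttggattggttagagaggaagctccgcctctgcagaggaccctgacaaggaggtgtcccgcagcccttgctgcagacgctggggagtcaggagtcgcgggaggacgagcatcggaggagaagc
Meg3: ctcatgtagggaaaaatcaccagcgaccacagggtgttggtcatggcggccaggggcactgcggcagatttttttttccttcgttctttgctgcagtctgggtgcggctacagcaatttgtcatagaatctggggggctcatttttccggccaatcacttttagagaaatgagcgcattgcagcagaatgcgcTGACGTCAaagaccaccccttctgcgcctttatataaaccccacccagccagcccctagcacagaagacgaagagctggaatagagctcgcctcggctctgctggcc

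RefSeq gave 10 such windows for 8 of the genes. TGACGTCA reads the same on both strands and was looked for after the sequences had been read. It occurs in the windows of Peg3 and Usp29, where it is the same site, and in 1 of the 2 windows of Meg3, against 1.79% of all 32851 promoter windows of this length. TATAAA, searched on both strands, occurs in that Meg3 window alone and in 13.6% of all windows. AAGATGGC, 1 form of the site that the factor YY1 binds, occurs in 0 of the 10 windows on either strand and in 2.75% of all windows. Other forms of that site were not searched, nor was sequence beyond the windows, so this 0 does not show that YY1 sites are absent. The Peg3 window holds 13 CpG dinucleotides and that of Usp29 17, against a median of 7 over all windows. Rian had 0 and the second Grb10 window 45. These matches describe the letters and show neither binding nor methylation.

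Totals ran from 6194521 to 8957331 counts per library. Levels are CPM, the counts of a gene per 1e+06 counts of its library, with totals scaled by TMM, and 3 reads correspond to between 0.339 and 0.473 CPM, a floor that covers counting error only. Hepatocyte markers summed to between 83070 and 97030 CPM in GC, 98000 and 111000 in MG, and 91800 and 115900 in AG. Skeletal muscle markers were uneven, at 503 CPM in GC 2, 319 in MG 2, 158 in GC 1, 65.0 in AG 1 and 12.6 in AG 3, and at most 1.02 in the other 4 libraries. Macrophage markers stood at 1130 CPM in AG 1 and between 211 and 282 in the others.

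Peg3 was 2.11 times as high in microgravity as in the ground controls and 2.09 times as high as in flight at 1 g. Its level was 13.02, 15.4 and 17.4 CPM in the GC libraries and 31.2, 31.0 and 34.6 CPM in the MG libraries. In the AG libraries it was 16.5, 16.3 and 13.5 CPM. The lowest MG library stood above the highest of the other 6, while GC and AG overlapped throughout. The group means were 15.3 ± 2.20 CPM in GC, 32.3 ± 2.03 in MG and 15.4 ± 1.67 in AG (SD, n = 3). AG was 1.01 times GC.

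On the log2 scale of the edgeR fit, Peg3 differed by 1.08 ± 0.14 (SE) in MG vs GC, 0.02 ± 0.14 in AG vs GC and 1.06 ± 0.14 in MG vs AG. The first and last of these share the MG libraries, and the first 2 share the GC libraries. At an edgeR adjusted p below 0.05, Peg3 was the 1 member called in MG vs GC, where 165 of 11884 genes, or 1.39%, were called. In AG vs GC 0 of the 7 members and 0% of all genes were called by edgeR. There, 1199 genes had an unadjusted p below 0.05, DESeq2 called 118 and limma-voom 0. In MG vs AG edgeR called 0 members and 0% of all genes, with 1165 genes at an unadjusted p below 0.05. DESeq2 called 97 genes there and limma-voom 2, Peg3 among them with each tool. For both flight groups together against GC, 0 members and 1% of all genes were called. Since these counts chose the members, nothing is read from their share.

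Marker levels of other cell types stand beside the Peg3 difference as follows. MG 2, with 319 CPM of muscle markers, had 31.0 CPM of Peg3, and MG 1 and MG 3, with at most 1.02 CPM of muscle markers, had 31.2 and 34.6 CPM. GC 2, the library richest in muscle markers, had 15.4 CPM of Peg3, the middle value of its group. GC 1, with 158 CPM of muscle markers, had the lowest Peg3 of its group, at 13.02 CPM, and GC 3, with 0.300 CPM, the highest, at 17.4 CPM. The 6 bile duct markers summed to between 28.4 and 28.9 CPM in MG, 37.2 and 47.3 in GC and 38.9 and 56.3 in AG. The 5 erythroid markers summed to between 170 and 200 CPM in MG, 204 and 365 in GC and 282 and 418 in AG. The 8 macrophage markers summed to between 211 and 243 CPM in MG, 253 and 267 in GC and 256 and 1130 in AG. These 3 lists thus also set each MG library apart from the other 6, on the low side, and at most 1 bile duct, 2 erythroid and 0 macrophage markers were at 0 in any library. Hepatocyte markers were higher in each MG library than in each GC library, while AG overlapped both. The part of these cell types in the Peg3 difference was not tested. Over 24 alternative settings the MG vs GC estimate lay between 0.91 and 1.18, and 22 of them called it. The other 2 left 1 GC library in the fit after muscle-rich libraries were taken out, with estimates of 0.91.

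**Figure D1:**
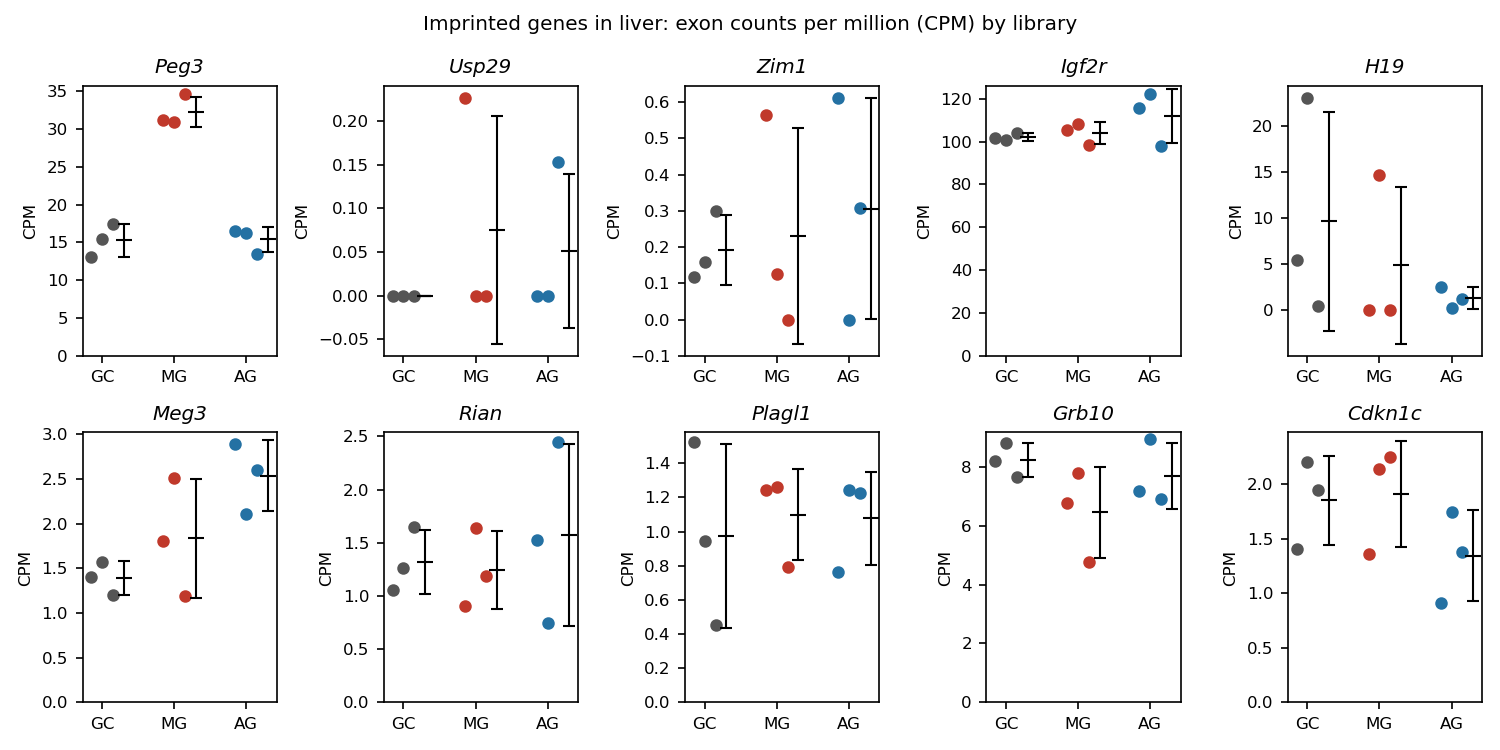
Exon counts in CPM of each of the 10 imprinted genes, 1 point per library, with the mean and SD of each group of 3 as a black bar beside the points (bars reach below 0 where the SD exceeds the mean). The 3 MG points of Peg3 lie between 31.0 and 34.6 CPM, above all other libraries, and H19 is scattered within groups.

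Other reads of Peg3 ran the same way with more scatter. Unique reads in its introns numbered 11, 8 and 7 in GC, 22, 16 and 10 in MG, and 7, 8 and 4 in AG. In CPM these were 1.20 ± 0.131 in GC, 1.94 ± 0.587 in MG and 0.892 ± 0.244 in AG (SD, n = 3), and the lowest MG library, at 1.32 CPM, stood just above the highest GC library, at 1.29 CPM. Unique reads across its exon junctions were 4, 6 and 12 in GC, 8, 16 and 21 in MG, and 5, 9 and 6 in AG, where MG and GC overlap. All exon reads of Peg3 mapped to a single place.

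The neighbours of Peg3 were near or below the floor. Usp29, which starts within the same promoter stretch, had 2 exon reads in MG 1, 1 in AG 3 and 0 in the other 7 libraries, against 1436 unique exon reads of Peg3. No read of Usp29 crossed an exon junction. Zim1, a zinc finger gene at chr7:6671268-6696450, lies 7440 bases from Peg3, on the same strand beyond its 3′ end, and is transcribed mainly from the other parental copy. It had 1, 1 and 2 exon reads in GC, 5, 1 and 0 in MG, and 4, 0 and 2 in AG, where the groups overlap. Its unique intron reads were 0, 1 and 0 in GC, 2, 3 and 4 in MG, and 0, 0 and 1 in AG, so that each MG library lay above the other 6. Those 9 MG reads were 0.377 ± 0.151 CPM, against 0.0525 ± 0.0910 in GC and 0.0511 ± 0.0885 in AG (SD, n = 3). In exon reads no difference of Usp29 or Zim1 was detectable at this depth. Zim3 and Zfp264, the other genes of the domain found in the table, had 0 counts.

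H19, the noncoding RNA of chr7:142575528-142578143, followed skeletal muscle transcripts over the libraries richest in them, with overlapping groups. It is expressed from the maternal copy, shares its control region with Igf2, stays expressed in adult skeletal muscle and carries the hairpin of miR-675. The 2 mature forms of that miRNA are shown with the seed, bases 2 to 8, in capitals, from RefSeq on GRCm38.p6 at chr7:142577112-142577133 and chr7:142577078-142577099, minus strand.
mmu-miR-675-5p: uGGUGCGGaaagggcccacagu
mmu-miR-675-3p: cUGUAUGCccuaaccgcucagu
Their seeds differ from each other, and the table lists Mir675 at 0 in all 9 libraries. The hairpin lies within H19 and the counting of overlapping reads is not given, so this 0 does not show absence.

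H19 stood at 5.51, 23.0 and 0.450 CPM in GC, from 47, 146 and 3 reads. In MG it had 0 reads in MG 1 and MG 3 and 117 reads, or 14.7 CPM, in MG 2. A count of 0 allows up to 0.339 CPM in MG 1 and 0.396 CPM in MG 3. In AG it stood at 2.59, 0.249 and 1.23 CPM, from 17, 2 and 8 reads. All 3 groups overlap, and the estimates had wide errors, −0.97 ± 1.36 (log2, SE) in MG vs GC, −2.85 ± 1.60 in AG vs GC and 1.89 ± 1.64 in MG vs AG. The signs of MG vs GC and MG vs AG turned with single libraries, while AG vs GC stayed below 0 whichever library was left out. MG vs GC was 0.66 without GC 2, and MG vs AG was −6.30 without MG 2. Without MG 2, MG vs GC kept its sign but stood at −9.15. By limma-voom MG vs AG was −1.38. The values without MG 2 are fitted against MG libraries at 0 and give no size.

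The 5 libraries with most H19 were GC 2, MG 2, GC 1, AG 1 and AG 3, which is also their order by the summed level of 10 skeletal muscle markers. Per 100 CPM of muscle markers, H19 stood at 3.50 CPM in GC 1, 4.57 in GC 2, 4.62 in MG 2, 3.99 in AG 1 and 9.76 in AG 3. All 10 markers were detected in GC 1, GC 2, MG 2 and AG 1, and 2 of the 10 were at 0 in AG 3. In the libraries with least H19, 8 of 10 markers were at 0 in GC 3, 6 in MG 1, 7 in MG 3 and 8 in AG 2. Acta1, the skeletal muscle actin, stood at 82.7 CPM in GC 2 and 57.9 in MG 2, and was at 0 in GC 3, MG 1, MG 3 and AG 2. The summed level ran from 0.300 to 503 CPM within GC, from 0.924 to 319 within MG and from 0.497 to 65.0 within AG. Among the libraries with least H19 the 2 orders parted. GC 3, lowest in muscle markers, had 0.450 CPM of H19, and MG 1, with 1.02 CPM of muscle markers, had 0. Stellate cell and fibroblast markers summed to 403 CPM in GC 2, 374.5 in AG 1, 328 in MG 2 and 312 in GC 1. They lay between 260 and 284 CPM in the others. The part of muscle and of these transcripts in the H19 differences was not tested.

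**Figure D2:**
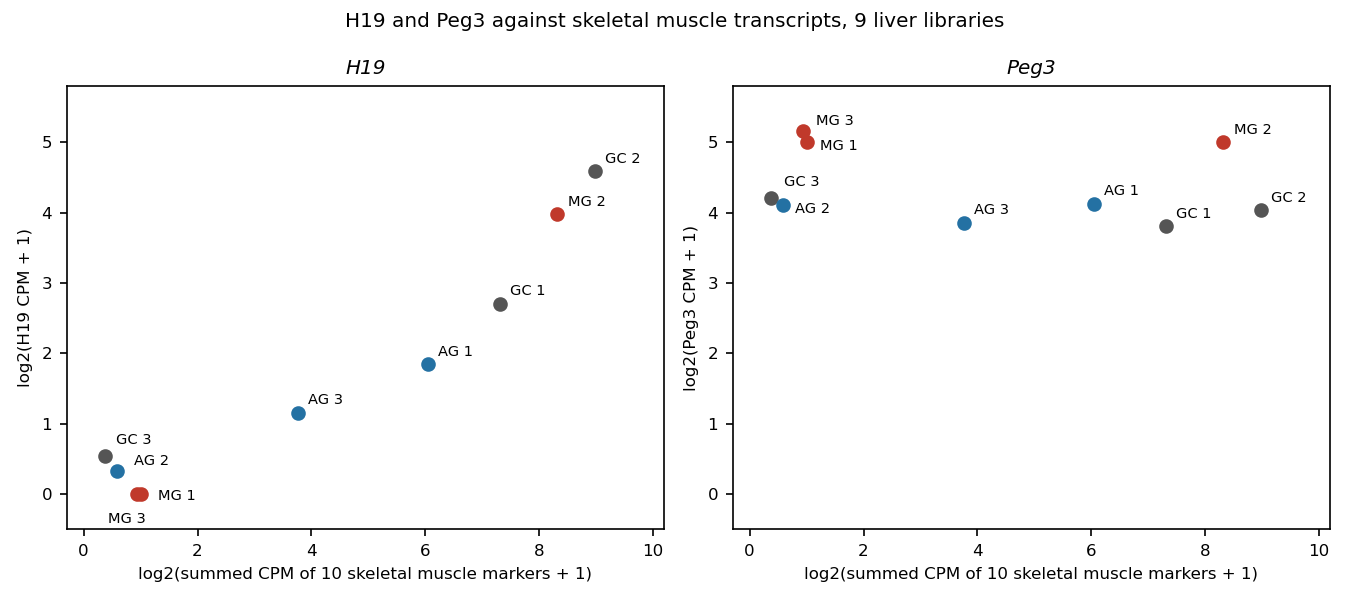
H19 (left) and Peg3 (right) against the summed CPM of 10 skeletal muscle markers, both axes as log2(CPM + 1), 1 point per library and colour by group. H19 climbs with the muscle markers over the 5 libraries where these exceed 12 CPM, while Peg3 in MG 2 stays level with MG 1 and MG 3.

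Igf2, the growth factor gene beside H19 that is read from the paternal copy, lay between 0.497 and 1.42 CPM in all libraries and was not tested for lack of counts. Cdkn1c, which encodes an inhibitor of cyclin-dependent kinases at chr7:143458338-143461050 in the neighbouring Kcnq1ot1 domain, was low and even. It stood at 1.41, 2.21 and 1.95 CPM in GC, 1.36, 2.14 and 2.25 in MG, and 0.915, 1.74 and 1.38 in AG. The groups overlap, and the estimate was 0.05 ± 0.36 in MG vs GC and −0.43 ± 0.38 in AG vs GC (log2, SE). Of its exon reads 68.3% mapped to a single place. Kcnq1ot1, the noncoding RNA of that domain, is listed at 0 in every library. How reads of overlapping genes were counted is not given, so this 0 does not show that the RNA was absent.

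Meg3 and Rian are maternally expressed noncoding RNAs of the cluster between Dlk1 and Dio3, at chr12:109541000-109571726 and chr12:109603939-109661716, 32212 bases apart. Meg3 stood at 1.41, 1.58 and 1.20 CPM in GC, 1.81, 2.52 and 1.19 in MG, and 2.90, 2.11 and 2.61 in AG. The 3 AG libraries lay above the 3 GC libraries, and MG spanned both. The estimate was 0.85 ± 0.35 in AG vs GC, 0.40 ± 0.36 in MG vs GC and −0.45 ± 0.34 in MG vs AG (log2, SE), from 8 to 20 reads per library. Of the Meg3 exon reads 77.9% mapped to a single place. Macrophage markers summed to 1130 CPM in AG 1, which had the highest Meg3 value, 282 in AG 2 and 256 in AG 3. In GC these markers summed to between 253 and 267 CPM, and their part in the Meg3 values was not tested.

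Intron reads of Meg3 stood at 0.603 ± 0.140 CPM in GC, 0.572 ± 0.169 in MG and 0.943 ± 0.0449 in AG (SD, n = 3), and the lowest AG library, at 0.915 CPM, was above the highest of the other 6, at 0.750 CPM. The share of intron reads over all genes was also highest in the AG libraries, at 40.95%, 36.6% and 36.1%, against 31.6% to 36.0% in the other 6, and its part in the Meg3 values was not tested. The Meg3 intron values amount to between 3 and 8 reads per library. Rian did not follow Meg3 in its exon reads, with 1.06, 1.26 and 1.65 CPM in GC, 0.905, 1.64 and 1.19 in MG, and 1.53, 0.746 and 2.45 in AG. Its groups overlap. The Rian estimates were −0.08 ± 0.47 in MG vs GC and 0.24 ± 0.47 in AG vs GC (log2, SE). Rian intron reads stood at 0.609 ± 0.396 CPM in GC, 0.329 ± 0.264 in MG and 0.809 ± 0.0957 in AG (SD, n = 3). Each AG library lay above each MG library in these, and GC overlapped both, from 1 to 9 reads per library. Mirg, a further noncoding RNA of the cluster, did not exceed 0.613 CPM, and Dlk1, which encodes a membrane protein made by fetal hepatoblasts, had 1 read in all libraries together.

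Igf2r was the most abundant member per exon length, and its 9 values lay between 97.8 and 122.3 CPM. Its product carries IGF2 and mannose 6-phosphate proteins to lysosomes, and it lies at chr17:12682405-12769664. Levels were 101.8, 100.5 and 104.2 CPM in GC, 105.3, 108.4 and 98.5 in MG, and 115.6, 122.3 and 97.8 in AG. The groups overlap, with estimates of 0.03 ± 0.10 in MG vs GC, 0.13 ± 0.10 in AG vs GC and −0.10 ± 0.10 in MG vs AG (log2, SE). Airn, the noncoding RNA read from the paternal copy across the body of Igf2r, had 35 counts in its exons and 988 unique reads in its introns over the 9 libraries. Airn intron reads stood at 16.4 ± 7.94 CPM in GC, 14.2 ± 4.23 in MG and 12.8 ± 1.27 in AG (SD, n = 3), with overlapping groups. It overlaps Igf2r on the genome, and since the sources do not state that counting used strand, reads of the pair may be mixed where they overlap. Only 30.6% of the Igf2r intron reads mapped to a single place in the table's terms, against 98.5% of its exon reads.

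Grb10 encodes an adaptor that binds and inhibits the insulin and IGF1 receptors, at chr11:11930507-12038683. Its levels were 8.21, 8.82 and 7.65 CPM in GC, 6.78, 7.80 and 4.75 in MG, and 7.17, 8.95 and 6.90 in AG. The lowest value was that of MG 3, and the groups overlap. Estimates were −0.35 ± 0.21 in MG vs GC and −0.10 ± 0.21 in AG vs GC (log2, SE). Intron reads of Grb10 did not share that order, at 6.55 ± 0.389 CPM in GC, 6.86 ± 1.49 in MG and 8.15 ± 1.23 in AG (SD, n = 3). Plagl1, which encodes a zinc finger factor at chr10:13060503-13131694, had between 3 and 13 reads per library. It stood at 1.53, 0.945 and 0.450 CPM in GC, 1.24, 1.26 and 0.792 in MG, and 0.762, 1.24 and 1.23 in AG. No difference was detectable at this depth.

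**Figure D3:**
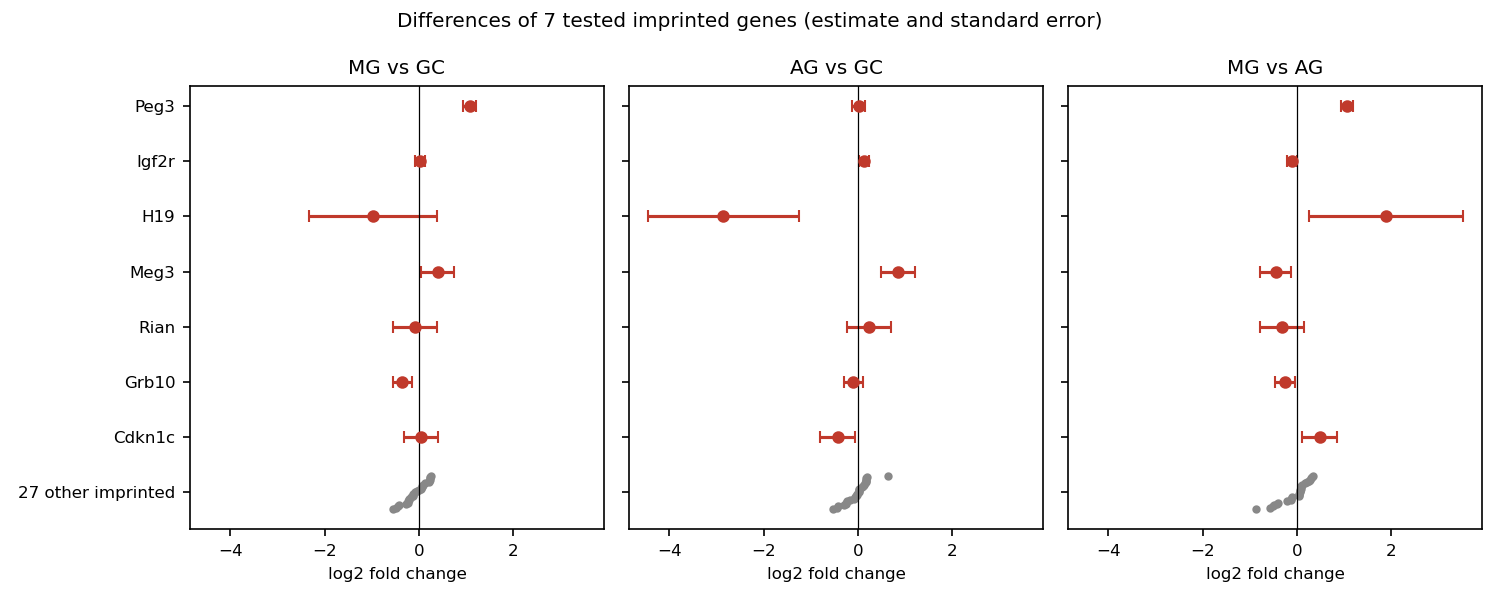
Log2 fold change of the 7 tested imprinted genes (red, with standard error) and of 27 other tested imprinted genes (grey points, sorted by value) in 3 comparisons. Peg3 stands at 1.08 in MG vs GC and 1.06 in MG vs AG and at 0.02 in AG vs GC, and H19 has the widest errors.

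The median log2 difference of the 7 tested members was 0.03 in MG vs GC, 0.02 in AG vs GC and −0.10 in MG vs AG. Over all genes tested the medians were 0.01, 0.01 and 0. In the deposited RPKM, which divide by exon length, the members ranked from Igf2r at 5.61 through H19 at 1.12, Peg3 at 0.780, Cdkn1c at 0.604 and Grb10 at 0.403 to Plagl1, Meg3 and Rian between 0.0595 and 0.0664. Zim1 at 0.0145 and Usp29 at 0.00152 RPKM came last. The place of H19 rests on its muscle-rich libraries, with 4.66 RPKM in GC 2 and 0 in MG 1 and MG 3. Plagl1, Meg3 and Rian do not differ beyond their spread, and Meg3 and Rian change places when RPKM are computed from unique exon reads. From these reads and TMM-scaled totals, Cdkn1c stood at 0.836 and Grb10 at 0.820, nearer each other than as deposited. Values were also higher that way, with Igf2r at 11.2 and Peg3 at 1.575.

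The members differed in how their RNA was read. Unique intron reads made up 49.2% of the unique reads of Grb10, 32.1% of those of Plagl1, 30.2% of Rian and 27.7% of Meg3. The share was 6.08% for Peg3, 6.40% for Igf2r, 4.20% for Cdkn1c and 0 for H19. Over all genes it lay between 31.6% and 40.95% per library. By unique reads Peg3, Igf2r, H19, Cdkn1c, Meg3 and Rian stood below the libraries as a whole. Intron lengths, which differ between genes, were not taken into account. For Igf2r the share takes in 487 of 1594 intron reads but 7118 of 7226 exon reads. Its share thus leaves out most of its intron reads, while that of Peg3 leaves out none. Reads across exon junctions made up 33.7% of the unique exon reads of Igf2r and 6.06% of those of Peg3.

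**Figure D4:**
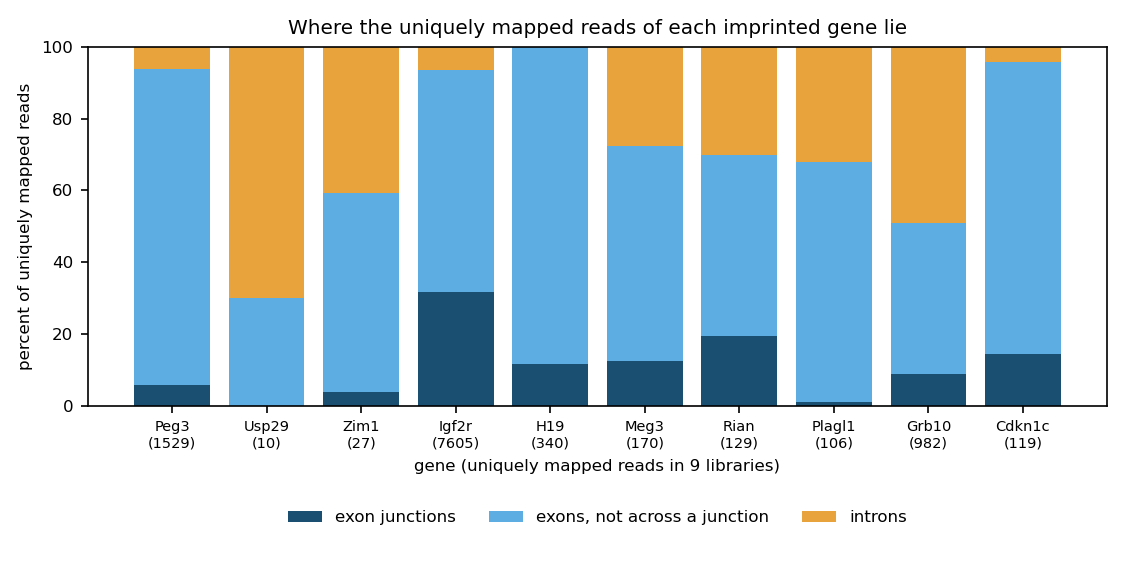
Share of the uniquely mapped reads of each imprinted gene that cross an exon junction, lie in exons without crossing a junction, or lie in introns, summed over 9 libraries, with the number of reads under each name. Introns take 49.2% of the reads of Grb10 and 6.08% of those of Peg3, and Usp29 and Zim1 rest on few reads.

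Other imprinted genes were not called. Of 65 listed, 61 are in the table, 15 had 0 counts, 19 had too few counts and 27 were tested, and edgeR called 0 of them in each comparison. Over all genes edgeR called 1.39% in MG vs GC, 0% in AG vs GC and MG vs AG, and 1% for both flight groups against GC. Nothing is therefore read from 0 calls here or in the shorter lists below. At an unadjusted p below 0.05 there were 4 of the 27 in MG vs GC, or 14.8% against 13.9% of all genes, 1 in AG vs GC and 2 in MG vs AG. DESeq2 and limma-voom also called 0. Their median log2 difference was −0.08 in MG vs GC, 0.01 in AG vs GC and 0.06 in MG vs AG. In MG vs GC they ran from −0.56 ± 0.26 (SE) for Snrpn, which encodes a splicing protein, to 0.27 ± 0.09 for Gnas, which encodes a G protein subunit. Snrpn stood at 6.10 ± 1.30 CPM in GC, 4.16 ± 0.992 in MG and 5.95 ± 1.02 in AG. Gnas stood at 246 ± 4.61 in GC, 297 ± 19.7 in MG and 278 ± 8.78 in AG (SD, n = 3). Mest, a hydrolase gene, and Peg10, a gene derived from a retrotransposon, had MG vs GC estimates of 0.07 ± 0.38 and −0.04 ± 0.40. Of 10 tested regulators of imprints, such as DNA methyltransferases and Yy1, edgeR, DESeq2 and limma-voom called 0 in each comparison, with 1 at an unadjusted edgeR p below 0.05 in MG vs GC, 1 in AG vs GC and 0 in MG vs AG. A list of fetal liver genes and related genes had 4 tested, Zhx2, Zfhx3, Gpc3 and Igf2bp2. These tools called 0 of them in each comparison, with 0 at an unadjusted edgeR p below 0.05. Gpc3 and Igf2bp2 were low, at means of 1.37 and 1.60 CPM over all libraries. Among that list, Zhx2, which represses fetal genes such as H19 in adult mouse liver, stood at 42.7 ± 3.41 CPM in GC, 42.4 ± 0.861 in MG and 43.9 ± 2.61 in AG (SD, n = 3). Gpc3, which encodes a glypican, had an MG vs GC estimate of 0.37 ± 0.59, and Afp, the fetal albumin, did not exceed 0.945 CPM.

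Among 14 genes of the IGF system, to which Igf2r and Grb10 belong by function, edgeR called 1 in MG vs GC, Igfbp2, and 0 in AG vs GC and MG vs AG. The 1 call in MG vs GC is 7.14% of the list, against 1.39% of all genes. At an unadjusted p below 0.05 there were 5 of the 14 in MG vs GC, or 35.7% against 13.9% of all genes. In AG vs GC there were 1 and in MG vs AG 3 of them, against 10.1% and 9.8% of all genes, and there DESeq2 called 0 and 2 and limma-voom 0 in both. Igfbp2, which encodes a secreted IGF binding protein, stood at 437, 601 and 438 CPM in GC, 229, 213 and 209 in MG, and 483, 362 and 437 in AG. All 3 MG libraries lay below the other 6, as they did in the bile duct, erythroid and macrophage markers given with Peg3, whose part in the difference was not tested. Igfbp2 fell by 1.18 ± 0.15 (log2, SE) in MG vs GC, with an edgeR adjusted p of 0.00622, and the median of the 14 genes was −0.01 against 0.01 for all genes. In MG vs AG it differed by −0.98 ± 0.15, with an edgeR adjusted p of 0.0713, and in AG vs GC by −0.20 ± 0.15. With both flight groups against GC it was again the 1 gene of the list called, a call lost in 10 of 23 alternatives.

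The genes whose log2 CPM ran most like Peg3 over the 9 libraries were Pink1, Vtn, Phlpp1, Rffl and Etnk1, with Pearson r between 0.941 and 0.962. These values describe 9 libraries in 3 groups and carry no p. The amplitude was smaller, since Pink1 ran from 179 to 218 CPM and Vtn from 2015 to 2423 CPM. For H19 the 5 nearest genes were Ak1, Hrc, Tpm2, Myh2 and Tnnt3, with r between 0.978 and 0.987. Hrc, Tpm2, Myh2 and Tnnt3 encode proteins of the contractile and calcium-handling apparatus of muscle, and Tnnt3 is also among the 10 markers. For Meg3 they were Rtn4, Osmr, Uckl1, Gtf2h1 and Zfp423, with r between 0.899 and 0.960.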

How the data were processed

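The authors deposited 1 gene table for 9 liver libraries. Per the file headers it holds, per gene and library, exon, intron and junction reads (unique ones and all), expression values and RPKM. The deposited expression values are whole-number counts, equal in 100% of rows to unique exon reads plus multiply mapped junction reads. The deposited RPKM divide by exon length. The genome builds GRCm38 and mm10 are named in the submitters' processing notes. For the aligner, the counting tool and the use of strand, the entry is "not given in the sources used here". The 81 other columns of per-library values were not used.

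The members and gene lists were chosen with earlier results of these data known. The 10 members were named, with 12 fixed genes, up to 5 called genes per list, the rows overlapping members, and for Peg3, H19 and Meg3 the 5 genes most alike by Pearson correlation of log2 CPM (prior count 2).

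Counts of 11884 genes kept by filterByExpr were scaled by TMM and fitted with edgeR 4.0.16 in R 4.3.3 (quasi-likelihood, 1 mean per group, 9 libraries, 6 residual degrees of freedom). A gene counted as called where its p, adjusted after Benjamini and Hochberg over all 11884, was under 0.05. For flight vs GC, GC was subtracted from the average of both flight groups. The biological coefficient of variation was 16.7%, and the fit was tested on simulated data. Standard errors are the estimate over the square root of the F statistic. Alternatives were other scalings and filters, DESeq2 1.42.0, limma-voom (limma 3.58.1), edgeR's robust setting, only the groups compared, a replicate block, other read classes, an adjusted p below 0.01 and left-out libraries. Added after seeing the data were 2 further sets of left-out libraries and the motif TGACGTCA. Tables and plots used Python 3.11.15, pandas 2.3.3 and matplotlib 3.10.9.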

Additional observations from a re-analysis of the deposited data

How the results depend on the processing

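The log2 difference of Peg3 ran from 0.91 to 1.18 in MG vs GC over 24 alternatives, from 0.97 to 1.14 in MG vs AG (7 called) and from −0.23 to 0.12 in AG vs GC (0 called). In MG vs AG, Peg3 was called without a filter, by DESeq2, limma-voom and the robust setting, and without GC 2, AG 1 or AG 3. Members called were 1 in each of these cases, 0 in MG vs GC without GC 1, GC 2 and MG 2 or these and AG 1, and 1 in flight vs GC by DESeq2 or without AG 3. Other imprinted genes called stayed at 0 under every alternative. Nothing is read from the share of members called. Over all genes, of which between 10539 and 18681 were tested, counts moved in every comparison. In MG vs GC, AG vs GC, MG vs AG and flight vs GC, no filter called 278, 44, 38 and 215 and DESeq2 394, 118, 97 and 323. Only the groups compared gave 375, 4 and 1 in the first 3, voom 2 and the robust setting 8 in MG vs AG. At an adjusted p below 0.01, 29 remained in MG vs GC and 0 in flight vs GC. Without GC 1, GC 2 and MG 2, 0 were called in MG vs GC and in flight vs GC, and with AG 1 also out 28, 2, 1 and 21. Without AG 1 and MG 2, 1 was called in AG vs GC and 5 in MG vs AG. Leaving out 1 library gave 21 to 290, 0 to 60, 0 to 130 and 0 to 229, and members called 1, 0, 0 to 1 and 0 to 1. In MG vs GC each library but AG 2 moved the count over 1.5 times. The cause was not tested. Igfbp2 kept its MG vs GC call in 22 of 24 alternatives, lost it with 1 GC library left, and lost the flight vs GC call without any of GC 1 to 3, MG 1 to 3 or AG 2.

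Same-numbered libraries deviated with correlations from −0.28 to 0.48, which show no consistent pairing by number and cannot exclude one. With the replicate block, 158 genes were called in MG vs GC, 0 in AG vs GC, 1 in MG vs AG and 130 in flight vs GC, and members as before. Depth limits Usp29, Zim1 and Plagl1, and 8 to 20 reads per library limit Meg3. H19 was called under no alternative, and its estimate ran from −9.16 to 0.66 in MG vs GC (1 of 23 above 0), from −3.75 to 1.52 in AG vs GC (1 of 23 above 0) and from −6.31 to 2.78 in MG vs AG (4 of 22 below 0).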
